A study of Homo sapiens with 12 samples.

Results

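Expression arrays were compared between U937 cells given JS-K for 4 h and U937 cells given its vehicle. U937 is a human myeloid leukemia line with features of immature monocytes, and JS-K is a prodrug of the diazeniumdiolate class that releases nitric oxide after it reacts with glutathione. The comparison used 6 of the 12 arrays of the series, 3 labelled JS-K 4 H and 3 labelled Vehicle Control. Description was restricted to the 9710 of 19775 measured genes whose mean log2 level was at least 4 in at least one of these groups, because weak signals read slightly higher on the 4 h arrays than on the vehicle arrays.

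Cells of both groups grew in RPMI 1640 medium with 10% fetal bovine serum at 37 degrees and 5% CO2, and the control cells received DMSO as vehicle. Each group held 3 arrays that the titles call biological replicates. The other 6 arrays, from cells given JS-K for 90 min or 24 h, were used to place the 4 h values in time. No label gives a JS-K dose or the length of the exposure to DMSO, and with a single vehicle group the time in culture cannot be told apart from JS-K.

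Nitric oxide and the use of glutathione both bear on the redox state of a cell. Oxidative stress is known to release the transcription factor NRF2, which raises genes for glutathione synthesis, thioredoxin and heme breakdown. Stress and growth signals also act within minutes on immediate early genes, such as those of the AP-1 and EGR factors, whose proteins then act on a second set of genes. MYC, a transcription factor that drives growth in many leukemias, is known to promote ribosome building, nucleotide synthesis and mitochondrial gene expression. In U937 cells, many agents that stop proliferation are known to move the cells toward macrophage features, such as Fc and chemoattractant receptors.

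Of the markers of monocytic cells, 18 of 20 measured lay at 4 or more, and MPO and FCGR1A did not. The mean log2 level over that list was 9.71 to 9.79 on the vehicle arrays and 9.86 to 10.03 at 4 h. None of the 15 T and natural killer cell markers or of the 13 epithelial markers reached 4 in either group, and the means over these lists lay between 2.34 and 2.64. Of the T and natural killer cell markers 5 were called between the groups, at levels under 4. PAX5 was the 1 of 10 B cell markers at 4 or more and EPOR the 1 of 11 erythroid markers, and both fell, PAX5 with a difference of -1.08 ± 0.29, a call lost without vehicle replicate 1 or 4 h replicate 2. PECAM1, FAP, COL1A1 and CLDN5 were the 4 of 15 fibroblast and endothelial markers at 4 or more, and PECAM1, which monocytes also carry, rose by 0.62 ± 0.08. FAP was called at 0.4 ± 0.12, a call lost without any one vehicle array or without 4 h replicate 3.

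Levels are log2 values made by the authors with GCRMA, so a difference of 1 is a 2-fold change. Differences are given as 4 h minus vehicle ± the standard error (SE) of the fit with 3 and 3 arrays. The test was a limma fit of all 12 arrays with a threshold of 0.05 on the adjusted p, genes past it are termed called, and "rose" and "fell" are used of called genes. Of the 9710 genes, 14.6% were called higher at 4 h and 32.6% lower, 1416 and 3166 genes. The excess of lower calls moved with 1 array: the median level of the genes at 4 or more was 7.97 on replicate 2 of the 4 h group, 8.27 and 8.21 on the other 4 h arrays and 8.32 to 8.33 on the vehicle arrays. The median difference over the 9710 genes was -0.15. Of the 10065 genes under 4 in both groups, which are not described, 3319 were called higher and 120 lower. With each array's median over the genes at 4 or more subtracted, 28.9% were called higher and 25.2% lower, and without replicate 2 these shares were 15.7% and 24.6%. Among the genes called, 30.9% were higher as deposited, 53.4% with array medians subtracted, 46.2% after quantile normalization and 39% without replicate 2. Replicate 2 also had the largest difference between the 3' and 5' probe sets of ACTB, at 1.15 against 0.77 to 0.93 on the other 5 arrays. Its difference for GAPDH was the lowest, at -0.147 against -0.0442 to 0.0237. Such differences are often read as RNA quality. The labels describe labelling from random hexamers, and whether the differences follow RNA quality here was not tested. The labels give every RNA sample an integrity number above 9. The poly-A spikes, transcripts added as labelling controls, averaged 3.04 ± 0.05 in vehicle and 7.02 ± 0.15 at 4 h (SD, n = 3). The part of these measures in the results was not tested.

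**Figure D1:**
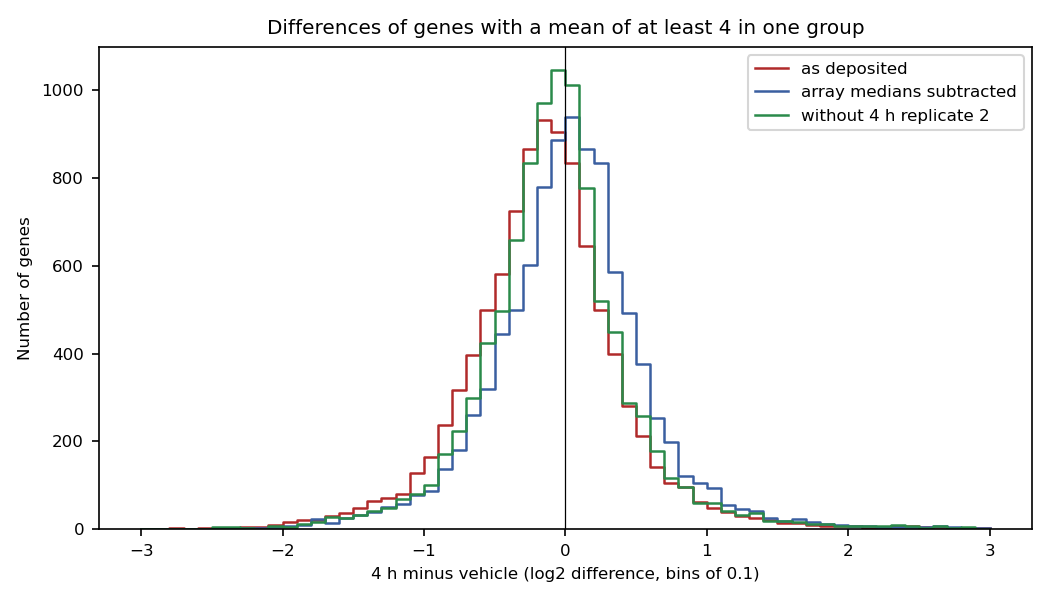
Number of genes (vertical axis) by the log2 difference between 4 h and vehicle in bins of 0.1 (horizontal axis), among genes with a mean of at least 4 in one group, as deposited, with array medians subtracted and without replicate 2 of the 4 h group. The bulk of the genes as deposited lies left of 0, with a median difference of -0.15, and both other curves lie to its right.

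List counts below are therefore read against these shares, and a list median is read against -0.15. A median over all measured genes of a list is read against 0.06, the median over all 19775 genes. Of the 9710 genes, 9362 had a mean of at least 4 in both groups, 151 at 4 h alone and 197 in vehicle alone. The vehicle and 4 h arrays did not overlap for 1887 of the 9710 genes with higher and 3618 with lower values at 4 h. Separate arrays were thus common, and genes ranked by size were drawn from genes without overlap. Where the text says that arrays stood apart, it describes the values and adds no support. Genes at 4 or more in 1 group alone had to differ to enter the description, and a difference of theirs, with one end in the range of weak signal, is read as a lower bound. At the border, RAX2 (3.78 in vehicle and 4 at 4 h) and ZKSCAN2 (4 and 3.37) were just inside, and DUBR (4 and 3.03) and SH2D3A (3.88 and 4) just outside.

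The upstream sequences of 6 genes are shown as examples of genes that rose, genes that fell and genes of mitosis that hold the letters counted below. They are the 250 bases before the annotated start in RefSeq on the plus strand of GRCh38.p14, and capitals mark only the 1 motif named for each gene. In CXCL8 (chr4:73740319-73740568) and EMP1 (chr12:13196476-13196725), which rose, the capitals are the AP-1 letters TGANTCA. In MARS2 (chr2:197705119-197705368) and DHODH (chr16:72008494-72008743), which fell, they are the E-box CACGTG, the letters that MYC and its partner MAX are known to bind. In PLK1 (chr16:23678639-23678888) and KIF23 (chr15:69414099-69414348), genes of mitosis, they are TTTGAA, the core of the cell cycle homology region. Of these 3 motifs, 1 CACGTG in PLK1 and 2 TTTGAA, read on either strand, in EMP1 are left in lower case. Matches to the other motifs searched are not marked, such as ggaatttcc in CXCL8, which matches the NF-kB letters GGANTTTCC.
CXCL8: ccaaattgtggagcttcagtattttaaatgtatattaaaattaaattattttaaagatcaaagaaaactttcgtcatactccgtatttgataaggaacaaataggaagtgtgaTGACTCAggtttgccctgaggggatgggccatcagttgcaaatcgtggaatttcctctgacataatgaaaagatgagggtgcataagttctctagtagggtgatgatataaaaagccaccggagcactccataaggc
EMP1: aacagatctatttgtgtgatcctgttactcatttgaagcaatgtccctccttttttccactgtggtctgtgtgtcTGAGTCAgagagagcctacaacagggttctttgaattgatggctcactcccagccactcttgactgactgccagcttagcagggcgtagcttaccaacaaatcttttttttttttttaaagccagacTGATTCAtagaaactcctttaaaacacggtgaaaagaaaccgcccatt
MARS2: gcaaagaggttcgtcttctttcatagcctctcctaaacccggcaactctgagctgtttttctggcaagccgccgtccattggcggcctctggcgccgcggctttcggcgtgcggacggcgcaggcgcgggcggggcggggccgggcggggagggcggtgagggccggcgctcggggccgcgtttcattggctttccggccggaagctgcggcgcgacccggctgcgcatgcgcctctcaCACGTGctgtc
DHODH: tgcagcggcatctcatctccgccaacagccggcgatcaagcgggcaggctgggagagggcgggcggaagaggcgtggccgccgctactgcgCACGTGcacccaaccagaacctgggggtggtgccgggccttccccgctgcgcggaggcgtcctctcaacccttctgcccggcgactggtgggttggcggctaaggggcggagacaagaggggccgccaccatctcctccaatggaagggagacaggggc
PLK1: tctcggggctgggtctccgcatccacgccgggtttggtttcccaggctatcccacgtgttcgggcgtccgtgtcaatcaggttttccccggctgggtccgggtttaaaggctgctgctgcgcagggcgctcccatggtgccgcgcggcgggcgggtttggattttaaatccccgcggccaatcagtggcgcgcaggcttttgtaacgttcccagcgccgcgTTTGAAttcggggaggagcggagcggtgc
KIF23: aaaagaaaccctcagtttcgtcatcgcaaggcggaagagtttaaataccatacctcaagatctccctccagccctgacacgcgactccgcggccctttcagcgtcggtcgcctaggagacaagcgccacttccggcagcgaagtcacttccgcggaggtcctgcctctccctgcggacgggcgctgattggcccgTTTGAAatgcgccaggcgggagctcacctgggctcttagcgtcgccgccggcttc

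The AP-1 letters stood 137 bases before the start of CXCL8, and 175 and 48 bases before that of EMP1. The E-box stood 11 bases before the start of MARS2 and 159 before that of DHODH, and TTTGAA 29 bases before PLK1 and 55 before KIF23. Shares were counted on both strands of windows of 300 bases, 250 before to 50 after each start, over the promoters that matched by symbol. TGANTCA was found in 7.71% of all 35116 promoters, 4.96% of those of genes at 4 or more, 9.76% of the 338 promoters of genes at least 2-fold higher at 4 h and 3.48% of the 603 of genes at least 2-fold lower. CACGTG was found in 7.26% of all promoters, 9.88% of those of genes at 4 or more, 6.8% of those of genes at least 2-fold higher and 10.9% of those of genes at least 2-fold lower, the set that holds MARS2 and DHODH. It was found in 34.6% of the 104 promoters of ribosome assembly genes and 11% of the 82 of mitochondrial ribosomal protein genes. Its share was 17.6% in the 34 promoters of immediate early transcription factor genes, a list with mostly rises. TTTGAA was found in 15.2% of all promoters, 10.8% of those of genes at 4 or more and 58% of the 81 promoters of mitosis genes. The AP-1 letters were in 2.94% of the promoters of immediate early transcription factor genes. These 3 motifs were kept from 17 that were searched, and the 6 promoters were picked for holding them, after the matches were seen. Other motifs differed too. In promoters of genes at least 2-fold higher, against genes at 4 or more, GGANTTTCC had 3.85% against 1.74% and the CArG letters 3.85% against 1.11%. The ETS letters CGGAAG had 15.7% there against 32%, and 60.6% in promoters of ribosome assembly genes. A match is a description of the letters and not a binding site.

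Genes of the immediate early response at 4 or more were higher at 4 h as a group. Of 26 immediate early transcription factor genes at 4 or more, out of 35 measured, 18 rose and 1 fell, with a median difference of 0.95. Some of them, such as ATF3, passed the level only at 4 h, and over all 35 measured the median was 0.31. JUN, an AP-1 subunit, read 8.1, 7.76 and 7.85 in vehicle and 10.98, 10.97 and 11.02 at 4 h, a rise of 3.08 ± 0.08 (adjusted p = 5.53e-10). The 4 h arrays stood together well above the vehicle arrays. KLF6, a zinc finger factor, read 8.96, 8.78 and 8.97 in vehicle and 11.45, 11.26 and 11.32 at 4 h, a rise of 2.44 ± 0.07. MAFF, a small MAF partner of NRF2, rose 5.99-fold, and ATF3, a stress-induced factor, rose by 3.93 ± 0.2 from a level under 4. For each of these the groups did not overlap. The most transient members behaved otherwise: FOS read 5.22, 4.76 and 5.83 in vehicle and 6.95, 5.57 and 6.96 at 4 h, and these values overlapped although the gene was called (adjusted p = 0.02), a call lost without vehicle replicate 1 or 2. EGR1 rose 1.71-fold, a call lost without vehicle replicate 2 or 3 or without 4 h replicate 2 or 3. CEBPB, a factor of myeloid genes, did not pass the test (0.03 ± 0.1). The arrays read whole cultures, so that a change in the share of cells with a transcript and a change per cell cannot be told apart.

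Other early response genes rose too, in a list that also holds feedback genes. Of 30 early response and MAP kinase feedback genes, 17 rose and 4 fell, with a median of 0.54, or 0.32 over all 36 measured. TRIB1, a pseudokinase that directs protein breakdown, read 2.84, 3.04 and 3.18 in vehicle and 8.24, 7.96 and 8.48 at 4 h, a rise of 5.21 ± 0.15 (adjusted p = 5.96e-10). IER3, an early gene of cell survival, rose by 3.81 ± 0.22 and PHLDA1 by 3.18 ± 0.19. These 3 genes came from weak signal in vehicle. SGK1, a kinase of stress and hormone responses, rose 4.46-fold from 7.83 to 9.99, and RGS1, which shortens chemokine receptor signalling, rose 5.24-fold. DUSP6, a phosphatase of ERK kinases, did not pass the test (0.06 ± 0.08). Among regulators of mRNA decay, where 6 of 23 rose and 8 fell, or 9 and 5 with array medians subtracted and 5 and 4 without 4 h replicate 2, ZFP36, which binds and destabilises cytokine mRNAs, rose 4.19-fold and BTG1 2.37-fold. ZFP36L2, of the same protein family as ZFP36, fell by 0.72 ± 0.08.

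CXCL8, the gene of the neutrophil attractant interleukin-8, had the largest rise of all genes at 4 or more in both groups. It read 6.38, 6.33 and 6.47 in vehicle and 11.84, 11.82 and 11.93 at 4 h, a rise of 5.47 ± 0.06 or 44.3-fold (adjusted p = 3.17e-14). CCL2, which attracts monocytes, read 8.29, 8.41 and 8.43 in vehicle and 10.64, 10.55 and 10.43 at 4 h, a rise of 2.16 ± 0.07. CXCL2 rose by 2.08 ± 0.19 from a vehicle mean of 4.05. These were the 3 of 5 chemokine genes that rose, and none fell, while CCL5 (-0.25 ± 0.14) and CCL23 (0.1 ± 0.13) did not pass the test. Of 26 chemokine genes measured, these 5 were at 4 or more, and the median over all 26 was 0.098.

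Of 17 cytokine and prostaglandin genes at 4 or more, 10 rose and 2 fell, or 11 and 1 both with array medians subtracted and without 4 h replicate 2. The median was 0.54, or 0.13 over all 33 measured. HBEGF, a growth factor shed from the cell surface, rose 4.04-fold, from 5.17, 5.22 and 5.16 to 7.36, 7.12 and 7.11. IL1RN, the receptor antagonist of interleukin-1, read 5.81, 6.04 and 6.01 in vehicle and 7.61, 6.93 and 7.43 at 4 h, a rise of 1.37 ± 0.16. IL1B itself read 3.33, 3.62 and 3.47 in vehicle and 4.42, 4.06 and 4.66 at 4 h, close to the range of weak signal in both groups, with a called difference of 0.91 ± 0.16. PTGS2, the inducible cyclooxygenase, rose by 1.92 ± 0.26 from a vehicle level under 4. VEGFA and IL32 did not pass the test. Among 20 genes of NF-kB subunits and feedback, 7 rose and 2 fell: NFKBIA, the classical inhibitor, rose by 1.39 ± 0.16, NFKBIZ by 1.26 ± 0.19 and TNFAIP3 by 0.73 ± 0.15. For NFKBIA the 4 h arrays read 9.43, 8.99 and 9.46, all above the vehicle arrays at 8.02, 7.83 and 7.85.

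**Figure D2:**
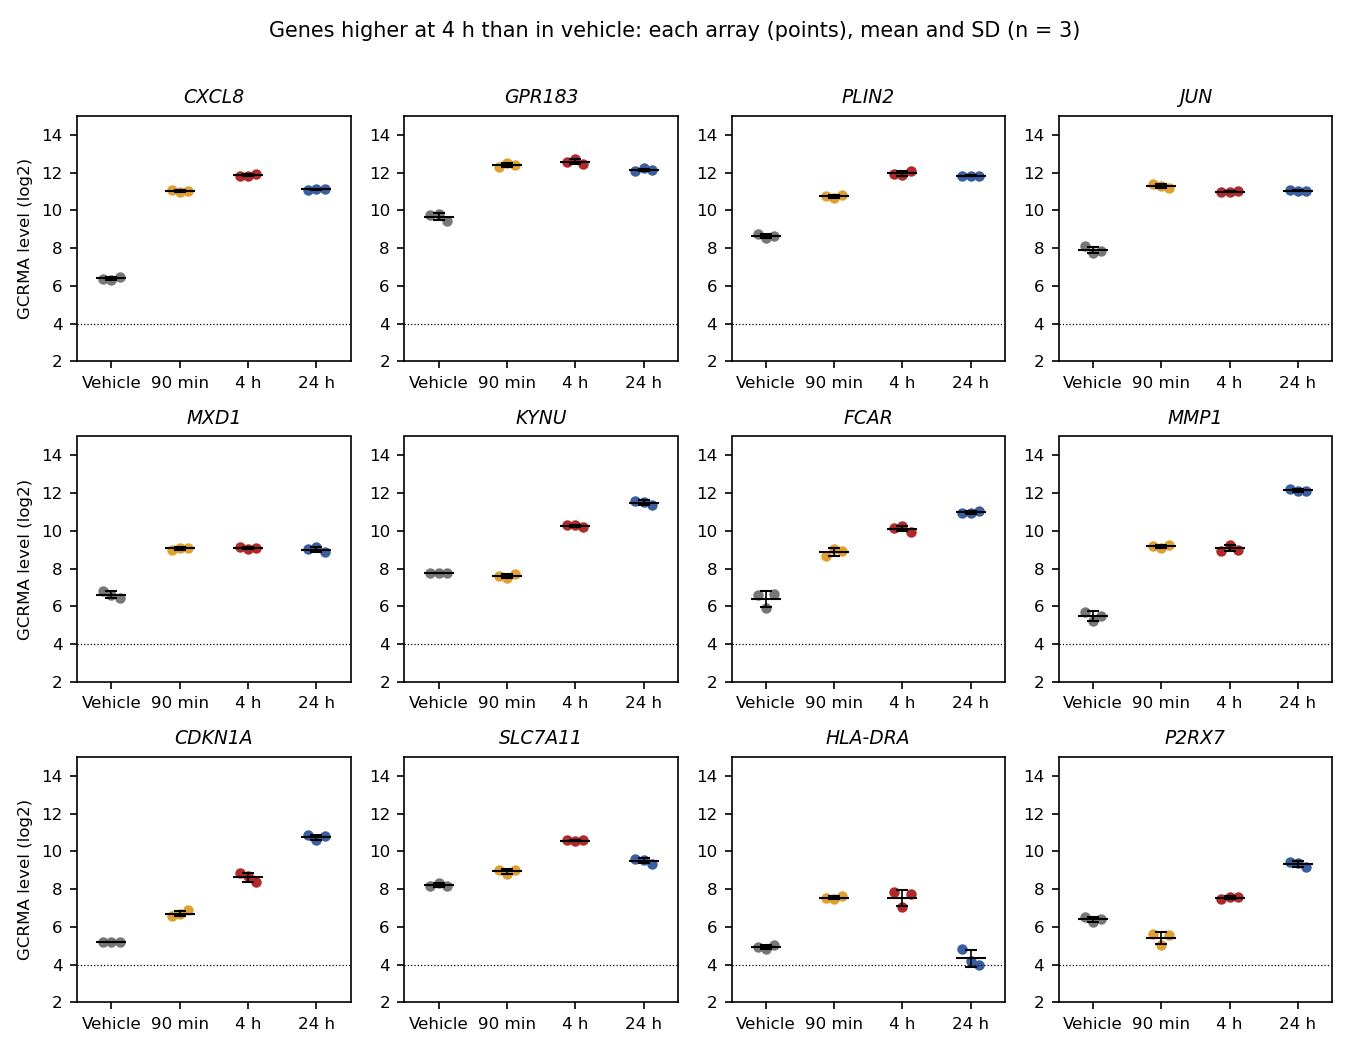
GCRMA log2 level (vertical axis) of 12 genes that were higher at 4 h than in vehicle, on each of the 3 arrays of the vehicle, 90 min, 4 h and 24 h groups (points), with mean and SD and a dotted line at 4. The 4 h points lie above the vehicle points in every panel, with KYNU and P2RX7 not above vehicle at 90 min and HLA-DRA below vehicle at 24 h.

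Several receptors by which phagocytes sense bacteria and complement rose. Of 16 chemoattractant receptor genes at 4 or more, 9 rose and 4 fell, with a median of 0.43. Over all 27 measured the median was 0.09, and C5AR1 and FPR1 passed the level only at 4 h. GPR183, a receptor for oxysterols that guides migrating immune cells, read 9.73, 9.8 and 9.46 in vehicle and 12.57, 12.72 and 12.44 at 4 h, a rise of 2.92 ± 0.09 (adjusted p = 1.64e-09). FPR2, a formyl peptide receptor, read 4.65, 4.73 and 5.38 in vehicle and 7.93, 7.76 and 7.92 at 4 h, a rise of 2.95 ± 0.21. C3AR1, the receptor of complement C3a, rose 5.45-fold. C5AR1 and FPR1 rose from weak signal, C5AR1 by 4.4 ± 0.15 to 7.49 and FPR1 by 3.22 ± 0.33 to 5.52. PTGER4 (0.15 ± 0.07) and LTB4R (-0.4 ± 0.24) did not pass the test.

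Fc receptors and the TREM family bind antibody-coated or other ligands and signal through adaptors with tyrosine motifs. Of 19 such genes, 9 rose and 3 fell, and 15 and 3 with array medians subtracted. The median was 0.26, or 0.13 over all 33 measured. FCAR, the receptor for immunoglobulin A, read 6.63, 5.89 and 6.66 in vehicle and 10.14, 10.24 and 9.96 at 4 h, a rise of 3.72 ± 0.18 (adjusted p = 4.54e-08). TREM1, an amplifier of inflammatory signals, read 4.4, 4.35 and 3.96 in vehicle and 7.74, 7.1 and 7.86 at 4 h, a rise of 3.33 ± 0.21. FCER1G, the shared gamma chain adaptor, rose 2.59-fold, CLEC5A 2.3-fold and FGR, a SRC family kinase of myeloid cells, 3.16-fold. The kinases SYK and LYN did not pass the test, at 0.12 ± 0.1 and 0.14 ± 0.09. Among 12 genes of S100 proteins and the phagocyte oxidase 7 rose and none fell, 10 with array medians subtracted. S100A8 and S100A9, which pair to form calprotectin, rose 3.04-fold and 2.31-fold. CYBB, the catalytic subunit of the oxidase, was called at 0.65 ± 0.24 although its arrays overlapped, 8.56, 7.5 and 8.11 in vehicle and 8.78, 8.35 and 9.01 at 4 h, and the call was lost without vehicle replicate 2 or 3 or 4 h replicate 1 or 3. Of 16 Toll-like receptor and inflammasome genes 5 rose and 1 fell, 8 and 1 with array medians subtracted. IRAK2, a kinase of Toll-like receptor signalling, rose by 0.87 ± 0.1, and TLR4, the endotoxin receptor, by 0.45 ± 0.09.

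Genes of lipid storage and uptake rose in part. PLIN2, which coats lipid droplets, read 8.75, 8.56 and 8.64 in vehicle and 11.95, 11.85 and 12.11 at 4 h, a rise of 3.32 ± 0.07 or 9.96-fold (adjusted p = 8.93e-11). FABP4, a fatty acid carrier of fat cells and macrophages, read 3.6, 3.49 and 3.51 in vehicle and 6.76, 6.54 and 6.49 at 4 h, a rise of at least 3.06 ± 0.13. CD36, a scavenger receptor for oxidised lipoprotein, read 8.84, 8.69 and 8.76 in vehicle and 10.57, 10.5 and 10.53 at 4 h, a rise of 1.77 ± 0.08. The 4 h arrays were above all vehicle arrays for each of these. ACSL1, which activates fatty acids, rose 2.07-fold. HILPDA, another lipid droplet gene, moved the other way and fell by 1.34 ± 0.2. In the list of 16 genes, 6 rose and 1 fell.

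Genes for breaking down matrix and for adhesion rose in part. Of 17 genes of proteases, urokinase and coagulation, 9 rose and 1 fell, with a median of 0.34, or 0.13 over all 33 measured. MMP1, interstitial collagenase, read 5.73, 5.22 and 5.5 in vehicle and 8.96, 9.25 and 9.01 at 4 h, a rise of 3.59 ± 0.12 (adjusted p = 1.74e-09). PLAUR, the urokinase receptor, read 8.45, 8.77 and 8.58 in vehicle and 11.41, 11.09 and 11.15 at 4 h, a rise of 2.62 ± 0.1, and PLAU, urokinase itself, read 9.08, 9.17 and 9.04 in vehicle and 10.97, 10.6 and 10.82 at 4 h, a rise of 1.7 ± 0.1. Of 23 genes of adhesion, integrins and costimulation, 8 rose and 4 fell, or 14 and 2 with array medians subtracted and 8 and 1 without 4 h replicate 2. EMP1, a tetraspan membrane protein, rose by 4.34 ± 0.24 from weak signal. THBD, thrombomodulin, rose 5.14-fold and CD83, a marker of mature dendritic cells, 2.76-fold. ITGB1 and ITGA5, integrin subunits, did not pass the test, at 0.14 ± 0.06 and 0.1 ± 0.12.

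Other genes were among the largest rises and belong to none of the groups above. CDKN1A, whose product p21 halts the cell cycle, read 5.21, 5.22 and 5.21 in vehicle and 8.85, 8.68 and 8.37 at 4 h, a rise of 3.42 ± 0.13. FZD7, a Wnt receptor, rose by 3.23 ± 0.12, GLIPR1 by 2.76 ± 0.3, and CYTIP, which regulates cell adhesion through cytohesin, by 2.73 ± 0.1. PALLD, an actin scaffold protein, read 5.94, 5.56 and 5.83 in vehicle and 8.36, 8.49 and 8.58 at 4 h, a rise of 2.7 ± 0.13. MAML2, a coactivator of Notch, rose by 2.66 ± 0.21 from 4.16. HLA-DRA, the alpha chain of a class II antigen-presenting molecule, read 4.95, 4.85 and 5.05 in vehicle and 7.85, 7.03 and 7.72 at 4 h, a rise of 2.58 ± 0.24, while HLA-DOB, also of class II, fell to a level under 4 (-2.22 ± 0.14). The 3 arrays of each group stayed apart for all genes in this paragraph, a condition of the ranking by size and so no support.

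Redox genes were not moved as a block. Of 23 genes of the NRF2 pathway, 13 rose and 3 fell, with a median of 0.32, or 0.095 over all 33 measured. HMOX1, which breaks down heme, read 2.75, 2.26 and 2.58 in vehicle and 7.66, 7.34 and 7.52 at 4 h, a rise of at least 4.98 ± 0.3 (adjusted p = 3.18e-07). SLC7A11, the cystine importer that feeds glutathione synthesis, read 8.17, 8.33 and 8.17 in vehicle and 10.59, 10.54 and 10.6 at 4 h, a rise of 2.35 ± 0.09. TRIM16 rose 5.97-fold, GCLM, the modifier subunit of the rate-limiting enzyme of glutathione synthesis, 2.81-fold, SQSTM1, an autophagy receptor that binds KEAP1, 2.55-fold, and NQO1, a quinone reductase, 2.4-fold.

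Glutathione synthesis and use as a list showed 2 genes higher, SLC7A11 and GCLM, and 9 lower of 24. With array medians subtracted 9 were called higher and 7 lower, and without 4 h replicate 2 there were 4 and 8. CBS, of the transsulfuration route, fell by 1.09 ± 0.17 and MAT2A, which makes S-adenosylmethionine, fell by 1.09 ± 0.06. Of 11 glutathione transferase genes, the enzymes that are known to help activate JS-K, none rose and 2 fell, GSTA4 at -1.31 ± 0.16 and GSTZ1 at -1.06 ± 0.31, the latter a call lost without any one of the vehicle arrays. With array medians subtracted 5 of the 11 were called higher and 2 lower, so no direction of that list held across scalings. In thioredoxin genes, where 4 of 26 rose and 6 fell, or 11 and 5 with array medians subtracted, TXNRD1, thioredoxin reductase, rose 1.6-fold and TXNIP, the inhibitor of thioredoxin, read 9.15, 8.92 and 8.97 in vehicle and 8.07, 8.02 and 7.91 at 4 h, a difference of -1.01 ± 0.08. SOD1 and CAT did not pass the test.

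The genes that handle nitric oxide itself gave 5 rises and 3 falls among 13. GUCY1A2, a subunit of the soluble guanylate cyclase that senses nitric oxide, read 4.9, 3.74 and 4.26 in vehicle and 6.39, 6.22 and 6.68 at 4 h, a rise of 2.13 ± 0.24. GCH1, the first enzyme on the way to a cofactor of nitric oxide synthases, rose by 1.5 ± 0.31, and DDAH2, which clears an inhibitor of these synthases, by 1.32 ± 0.21. VASP, a target of the cyclic GMP-dependent kinase, rose 1.57-fold. ADH5, which reduces nitrosoglutathione, did not pass the test (-0.08 ± 0.07).

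Stress responses of protein folding were mixed. Of 32 heat shock genes, 9 rose and 9 fell, or 13 and 6 with array medians subtracted: BAG3, a cochaperone of stress, rose 2.45-fold and DNAJB1 1.71-fold, while DNAJA3, a mitochondrial cochaperone, fell 2.05-fold. Of 33 genes of the endoplasmic reticulum and its unfolded protein response, 11 rose and 4 fell, or 18 and 4 with array medians subtracted. HERPUD1 rose by 0.66 ± 0.06, DNAJB11 by 0.67 ± 0.09 and HSPA5, the chaperone BiP, by 0.37 ± 0.05. Targets of ATF4, the factor of the amino acid response, split: PPP1R15A, which restarts translation after stress, rose 4.97-fold, ASNS, asparagine synthetase, fell by 1.5 ± 0.25, and DDIT3 did not pass the test (0.12 ± 0.13). In that list 7 of 28 rose and 9 fell, or 13 and 8 with array medians subtracted and 9 and 8 without 4 h replicate 2, so its direction did not hold.

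Genes of mitosis were higher at 4 h while genes of DNA replication were lower. Of 72 mitosis and spindle checkpoint genes, 48 rose and 3 fell, with a median of 0.36, and 59 rose and 1 fell with array medians subtracted. The sizes were small. PLK1, a mitotic kinase, read 8.5, 8.49 and 8.65 in vehicle and 9.55, 9.33 and 9.41 at 4 h, a rise of 0.88 ± 0.1. ECT2, which positions the cleavage furrow, rose by 0.91 ± 0.09, ANLN by 0.9 ± 0.08 and KIF23, a kinesin of cytokinesis, by 0.77 ± 0.13. CCNB2 and SMC4 did not pass the test. Of 56 replication genes, 34 fell and 1 rose, with a median of -0.37. MCM3, of the replicative helicase, read 12.1, 11.97 and 12.1 in vehicle and 11.46, 10.98 and 11.37 at 4 h, a difference of -0.79 ± 0.1. ORC2 fell by 1.09 ± 0.17 and PRIM1, of the primase, fell by 1.02 ± 0.17. PCNA (-0.04 ± 0.07) and MCM7 (-0.15 ± 0.08) did not pass the test. Of 51 genes of DNA repair and its checkpoints, 29 fell and 2 rose, or 25 and 7 with array medians subtracted: PMS1, of mismatch repair, fell 2.44-fold and CHEK2, a checkpoint kinase, 2.03-fold.

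The control of entry into the cell cycle changed in both directions, with 9 of 32 genes higher and 9 lower, or 12 and 7 with array medians subtracted. CDKN1A and CCNE2, cyclin E2, rose, CCNE2 by 1.15 ± 0.11. CCND2, cyclin D2, read 9.12, 8.74 and 9.08 in vehicle and 8.04, 7.55 and 7.61 at 4 h, a difference of -1.25 ± 0.13, and E2F5 fell by 1.51 ± 0.22. Of 20 p53 target genes 4 rose and 6 fell, the falls near the 32.6% lower among all genes, or 7 and 3 with array medians subtracted. PMAIP1, the death gene NOXA, rose by 1.27 ± 0.13 and GADD45A fell by 1.04 ± 0.21. In the BCL2 family and caspases, 11 of 32 rose and 7 fell. The survival genes BCL2A1 and MCL1 rose 2.54-fold and 2.12-fold, and BCL2L11, the death gene BIM, fell 2.33-fold, from 9.61, 9.55 and 9.69 to 8.52, 8.13 and 8.55.

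MYC read 12.6, 12.42 and 12.44 in vehicle and 9.85, 9.55 and 9.72 at 4 h, a difference of -2.78 ± 0.08 or 6.88-fold (adjusted p = 5.96e-10). MXD1, which competes with MYC for its partner MAX, moved the other way and read 6.8, 6.62 and 6.42 in vehicle and 9.13, 9.03 and 9.09 at 4 h, a rise of 2.47 ± 0.1 (adjusted p = 1.16e-08). Neither gene's groups came near each other. Of 21 genes of the MYC network as a whole, 8 fell and 1 rose, but 4 fell and 6 rose with array medians subtracted. LDHA and NPM1, targets of MYC in many cells, did not pass the test (0.05 ± 0.06 and 0.05 ± 0.04).

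The machinery that makes ribosomes fell broadly. Of 111 ribosome assembly genes, 88 fell and none rose, with a median of -0.68, and 84 fell and 3 rose with array medians subtracted. URB2 read 8.08, 7.59 and 7.57 in vehicle and 6.03, 5.66 and 5.9 at 4 h, a difference of -1.89 ± 0.17. UTP15, of the small subunit processome, read 8.28, 8.45 and 8.48 in vehicle and 6.67, 6.18 and 6.72 at 4 h, a difference of -1.88 ± 0.18, and RRS1 read 10.26, 10.12 and 10.07 in vehicle and 8.58, 8.24 and 8.5 at 4 h, a difference of -1.71 ± 0.12. BYSL read 9.93, 10.13 and 10.01 in vehicle and 8.69, 7.2 and 8.57 at 4 h, a difference of -1.87 ± 0.33, with 4 h replicate 2 well under the other 4 h arrays. Of 35 genes of RNA polymerases I and III, which copy ribosomal and transfer RNA, 20 fell and 1 rose. POLR1B, the second largest subunit of polymerase I, read 10.26, 10.11 and 10.08 in vehicle and 8.31, 8.11 and 8.34 at 4 h, a difference of -1.9 ± 0.09. POLR1C, shared by both enzymes, fell by 1.81 ± 0.16 and POLR3G, of polymerase III, fell by 1.39 ± 0.21.

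The genes of the ribosomal proteins themselves gave no direction that held across scalings. Of 53 cytosolic ribosomal protein genes, 24 were called lower and none higher as deposited, with a median of -0.15, the same as that of all genes. With array medians subtracted 9 were called higher and 4 lower, and without 4 h replicate 2 none higher and 11 lower. RPL12 fell by 0.42 ± 0.07, while RPS18 (-0.12 ± 0.05) did not pass the test. Of 18 cytosolic tRNA synthetases 14 fell and none rose, among them AARS1, which read 10.41, 10.44 and 10.4 in vehicle and 9.65, 9.28 and 9.49 at 4 h, and FARSA, with differences of -0.95 ± 0.08 and -0.92 ± 0.14. Of 62 genes that modify transfer and ribosomal RNA, 39 fell and 1 rose. RPUSD2, a pseudouridine synthase, fell by 2.08 ± 0.23 and ADAT2, of an adenosine deaminase of transfer RNA, fell by 1.68 ± 0.23. Of 46 translation initiation genes 27 fell and 3 rose, or 16 and 9 with array medians subtracted.

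**Figure D3:**
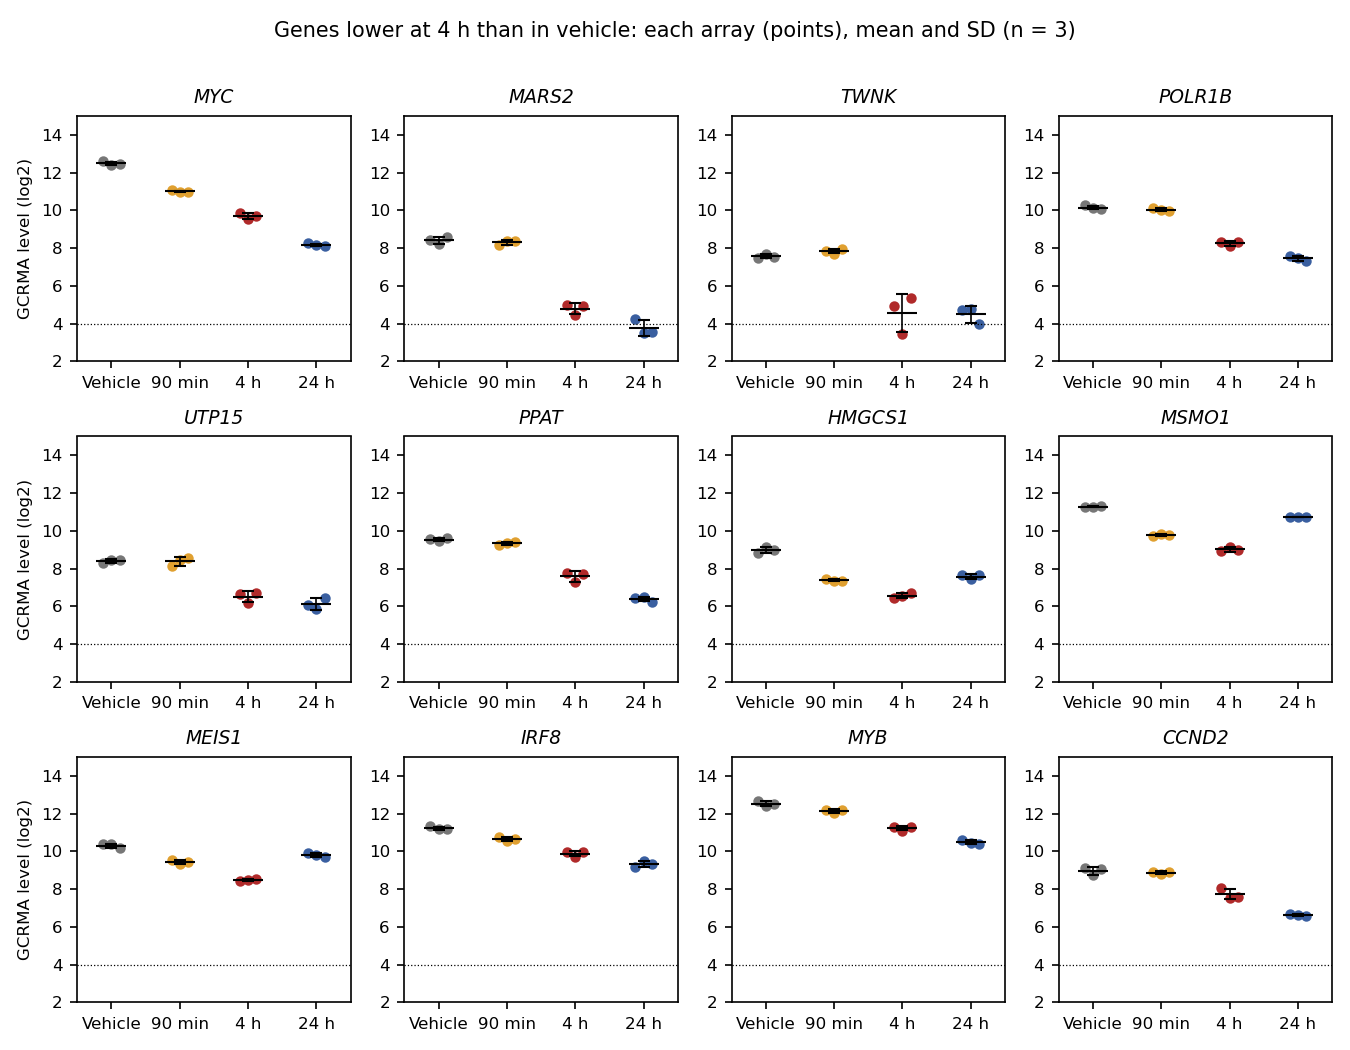
GCRMA log2 level (vertical axis) of 12 genes that were lower at 4 h than in vehicle, on each of the 3 arrays of the 4 groups (points), with mean and SD and a dotted line at 4. MARS2, TWNK, POLR1B and UTP15 lie within 0.5 of vehicle at 90 min and fall by 4 h, and MSMO1, HMGCS1 and MEIS1 are higher at 24 h than at 4 h.

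Genes that serve mitochondrial gene expression fell as well. MARS2, the mitochondrial methionyl-tRNA synthetase, read 8.44, 8.22 and 8.57 in vehicle and 5.01, 4.45 and 4.94 at 4 h, a difference of -3.61 ± 0.21 or 12.2-fold (adjusted p = 2.51e-07), the largest fall of genes at 4 or more in both groups. TWNK, the helicase that copies mitochondrial DNA, read 7.49, 7.7 and 7.55 in vehicle and 4.92, 3.44 and 5.35 at 4 h, a difference of -3.01 ± 0.38 (adjusted p = 0.000124). Replicate 2 was the lowest of its 4 h arrays, and all 3 lay under all vehicle arrays. Of 46 genes that maintain mitochondrial DNA and RNA, 30 fell and 1 rose, with a median of -0.52. POLG2, an accessory subunit of the mitochondrial DNA polymerase, fell by 1.79 ± 0.15 and TFB1M, a methyltransferase of mitochondrial ribosomal RNA, fell by 1.34 ± 0.12. Of 18 mitochondrial tRNA synthetase genes, 13 fell and none rose, but 7 without 4 h replicate 2. PARS2 fell by 1.43 ± 0.17, while FARS2 (-0.18 ± 0.14) and CARS2 (-0.12 ± 0.11) did not pass the test.

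Of 74 mitochondrial ribosomal protein genes, 54 fell and 2 rose, with a median of -0.38, or 42 and 5 with array medians subtracted. MRPS26 read 10.23, 10.27 and 10.28 in vehicle and 9.19, 8.66 and 9.06 at 4 h, a difference of -1.29 ± 0.13, and MRPL17 fell by 1.2 ± 0.09. Of 31 genes of protein import, 18 fell and none rose, and TIMM9 fell by 1.19 ± 0.14. Genes of the respiratory chain had a median of -0.21 for complex I and -0.17 for complexes II to V. Of 40 complex I genes 20 fell and 1 rose, or 13 and 3 with array medians subtracted. Of 48 genes of complexes II to V 20 fell and 5 rose, but 11 and 12 with array medians subtracted. Those with the largest falls were assembly factors of complexes: SDHAF1, of complex II, fell by 1.39 ± 0.12, and COX18 and SCO1, of cytochrome oxidase, fell, with differences of -1.22 ± 0.09 and -1.1 ± 0.17. COX5A (0.04 ± 0.06) and ATP5PB (-0.12 ± 0.05), structural subunits, did not pass the test. PDP1, the phosphatase that switches on pyruvate dehydrogenase, was an exception among 35 genes of the TCA cycle and pentose phosphate route, of which 18 fell and 2 rose, or 12 and 2 with array medians subtracted. It read 9.08, 8.73 and 8.81 in vehicle and 10.48, 10.53 and 10.41 at 4 h, a rise of 1.6 ± 0.08.

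Cholesterol synthesis had the most negative median of the lists described here, -1.15, with 18 of 22 genes lower and none higher, and 18 and none without 4 h replicate 2. HMGCS1, at the entry of the pathway, read 8.85, 9.13 and 8.97 in vehicle and 6.44, 6.54 and 6.7 at 4 h, a difference of -2.42 ± 0.11. MSMO1, a sterol methyl oxidase, read 11.25, 11.28 and 11.3 in vehicle and 8.92, 9.16 and 8.97 at 4 h, a difference of -2.26 ± 0.06 (adjusted p = 5.96e-10). INSIG1, which holds the SREBP factors back when sterol is plentiful, read 13.06, 12.96 and 13.02 in vehicle and 10.77, 11.12 and 10.86 at 4 h, a difference of -2.1 ± 0.08. The groups were far apart on every array for each. SREBF1, one of these factors, fell by 1.88 ± 0.18 and STARD4, a sterol carrier, fell by 2.06 ± 0.1. INSIG2 (-0.15 ± 0.08) and PMVK (-0.21 ± 0.11) did not pass the test. In fatty acid synthesis 11 of 21 genes fell and 2 rose: SCD, which makes monounsaturated fatty acids, fell 3.21-fold, ACACA, acetyl-CoA carboxylase, 3.77-fold and FASN, fatty acid synthase, 3.14-fold.

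Genes of purine synthesis fell in part, and those of pyrimidine synthesis moved both ways. PPAT, the first committed enzyme of purine synthesis, read 9.56, 9.46 and 9.6 in vehicle and 7.77, 7.27 and 7.74 at 4 h, a difference of -1.94 ± 0.13 (adjusted p = 5.93e-07). Of 17 purine genes 9 fell and none rose, or 6 and 3 with array medians subtracted, and GART and PAICS, of later steps, fell, with differences of -0.55 ± 0.08 and -0.53 ± 0.07. DHODH, of pyrimidine synthesis in mitochondria, read 6.08, 5.54 and 6.14 in vehicle and 3.36, 3.19 and 3.63 at 4 h, a fall at least as large as the difference of -2.53 ± 0.21, and UMPS fell by 0.83 ± 0.1. Of 22 pyrimidine and deoxynucleotide genes, however, 6 rose and 6 fell, or 10 and 5 with array medians subtracted, and RRM2B, a ribonucleotide reductase subunit induced by p53, rose by 0.98 ± 0.07. TYMS (0.04 ± 0.05) and DUT (-0.05 ± 0.04) did not pass the test. In folate and serine metabolism 10 of 19 genes fell and none rose, with PHGDH, the first enzyme of serine synthesis, at -0.79 ± 0.07 and SHMT2 at -0.58 ± 0.07.

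Transcription factors of the myeloid line moved both ways. Of 30 myeloid transcription factor genes, 11 rose and 10 fell, the falls near the 32.6% lower among all genes. The counts were 15 and 9 with array medians subtracted and 9 and 7 without 4 h replicate 2. MEIS1, a homeobox factor of leukemic stem cells, read 10.37, 10.37 and 10.19 in vehicle and 8.42, 8.47 and 8.52 at 4 h, a difference of -1.84 ± 0.08 (adjusted p = 1.77e-08). MYB, of immature blood cells, read 12.68, 12.42 and 12.51 in vehicle and 11.29, 11.09 and 11.28 at 4 h, a difference of -1.32 ± 0.09. GFI1, a repressor of the granulocyte line, fell by 1.51 ± 0.12 and IRF8, a factor of the monocyte line, fell by 1.35 ± 0.09. PRDM1, a transcriptional repressor, rose by 3.56 ± 0.18 from weak signal, and SPI1, PU.1, the leading factor of the myeloid line, rose by 0.91 ± 0.19. Of 13 granule genes of immature myeloid cells 6 rose and 2 fell, with a median of 0.18, or 0.076 over all 21 measured. LYZ, lysozyme, rose by 0.71 ± 0.13, and ELANE, neutrophil elastase, did not pass the test (-0.27 ± 0.1).

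Of 27 interferon-stimulated genes, 12 fell and 3 rose, as against 32.6% lower among all genes, or 10 and 6 with array medians subtracted. PSMB9, an immunoproteasome subunit, fell by 1.45 ± 0.22 and SP110 fell by 1.4 ± 0.26, while ISG15 and BST2 did not pass the test. Of 48 proteasome and ubiquitin genes 10 fell and 3 rose, but 4 fell and 17 rose with array medians subtracted and 6 and 7 without 4 h replicate 2. Of 66 splicing genes 19 fell and 9 rose, but 10 fell and 22 rose with array medians subtracted. Of 57 autophagy and lysosome genes 11 rose and 10 fell, or 25 and 5 with array medians subtracted, and TFE3, a factor of lysosome genes, rose 2.31-fold and MAP1LC3B 1.89-fold. H2BC12, a histone H2B gene, rose by 1.97 ± 0.09, from 8.0, 7.73 and 7.95 to 9.85, 9.77 and 9.97, in a list of 13 histone genes in which 2 rose and 1 fell. DNMT3B, a DNA methyltransferase, rose by 1.11 ± 0.11, and among histone modifiers KDM1A fell by 1.06 ± 0.17.

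**Figure D4:**
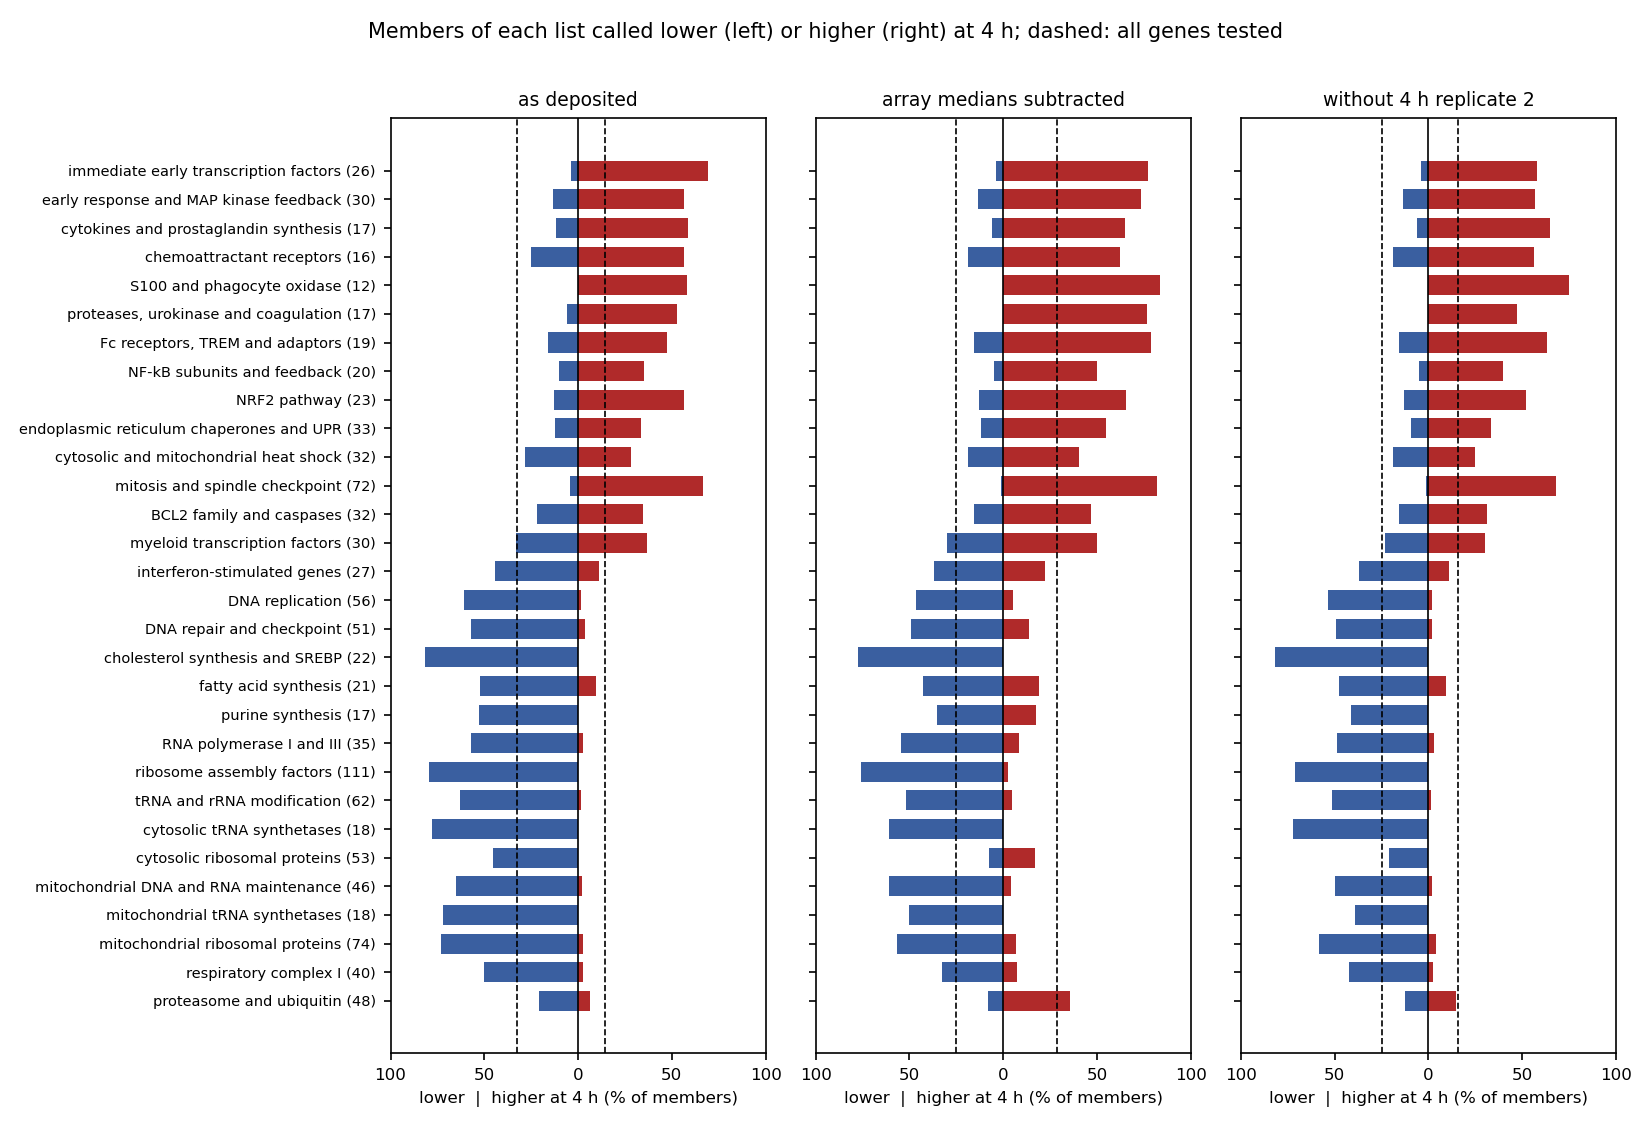
Share of the members of 30 gene lists at 4 or more (number in brackets) that were called lower (left of 0) or higher (right of 0) at 4 h, in percent, as deposited, with array medians subtracted and without replicate 2 of the 4 h group. Dashed lines mark the shares over all genes tested, and the bars of ribosome assembly and cholesterol synthesis reach well past the line for lower calls in each panel, while those of cytosolic ribosomal proteins do not once array medians are subtracted.

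The 4 h arrays were also set against the 90 min arrays. This difference is that between the effects of 4 h and of 90 min, since the vehicle arrays cancel, and it shares the 4 h arrays with the comparison above. Of 9627 genes whose mean reached 4 at either of these times, 6.42% were higher at 4 h than at 90 min and 14.7% lower. The poly-A spikes averaged 3.08 at 90 min and 7.02 at 4 h, and their part in these differences was not tested. Genes already raised at 90 min made up part of the early response. JUN read 11.41, 11.27 and 11.18 at 90 min, slightly above its 4 h level (-0.3 ± 0.08, adjusted p = 0.0414). GPR183 read 12.28, 12.49 and 12.42 at 90 min, FZD7 8.34, 8.23 and 8.31 and MXD1 9.0, 9.12 and 9.11, and none of these differed from 4 h at the threshold. FOS was higher at 90 min, at 8.53, 8.52 and 8.62, and lower at 4 h, with a difference of -2.07 ± 0.34 (adjusted p = 0.00181). EGR1 likewise read 11.62, 10.49 and 10.58 and was lower at 4 h, with a difference of -0.98 ± 0.26.

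Another set appeared between 90 min and 4 h. KYNU, kynureninase of tryptophan breakdown, read 7.6, 7.52 and 7.71 at 90 min and 10.29, 10.3 and 10.21 at 4 h, a difference of 2.66 ± 0.08 (adjusted p = 3.83e-09), against 7.79, 7.79 and 7.79 in vehicle. PALLD read 5.66, 5.64 and 6.03 at 90 min and differed by 2.7 ± 0.13. MAML2 differed by 2.52 ± 0.21, and DAAM1, a formin that builds actin filaments, by 2.48 ± 0.12, from 5.21 at 90 min to 7.7 at 4 h. PLAU, at 9.28 at 90 min, differed by 1.51 ± 0.1. HMOX1, already at 4.94 at 90 min, was higher at 4 h by 2.57 ± 0.3. P2RX7, an ATP-gated channel of macrophages, read 6.53, 6.24 and 6.41 in vehicle, 5.65, 5.04 and 5.55 at 90 min and 7.46, 7.58 and 7.61 at 4 h. It was thus lower at 90 min and higher at 4 h than in vehicle, and the times differed by 2.14 ± 0.15 (adjusted p = 7.09e-06).

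Ribosome assembly genes and many mitochondrial genes were lower at 4 h than at 90 min. Of the 111 ribosome assembly genes, 90 were lower at 4 h than at 90 min and none higher. Their median difference from vehicle was 0.12 at 90 min, -0.68 at 4 h and -1.45 at 24 h. MARS2 read 8.17, 8.38 and 8.37 at 90 min, near vehicle, and was lower at 4 h, with a difference of -3.51 ± 0.21. TWNK read 7.86, 7.71 and 7.96 at 90 min and was lower at 4 h, with a difference of -3.27 ± 0.38. URB2, BYSL and RRS1 were lower as well, with differences of -2.18 ± 0.17, -2.09 ± 0.33 and -2.06 ± 0.12. Of 35 polymerase I and III genes 16 were lower and none higher, and of 74 mitochondrial ribosomal protein genes 35 and none. MYC was partway, at 11.06, 10.98 and 10.99 at 90 min, and lower at 4 h, with a difference of -1.3 ± 0.08. Cholesterol genes had moved earlier: their median was -0.82 at 90 min and -1.15 at 4 h, and MSMO1 read 9.75, 9.81 and 9.78 at 90 min. For all genes at 4 or more the medians were -0.03, -0.15 and -0.10 at 90 min, 4 h and 24 h.

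**Figure D5:**
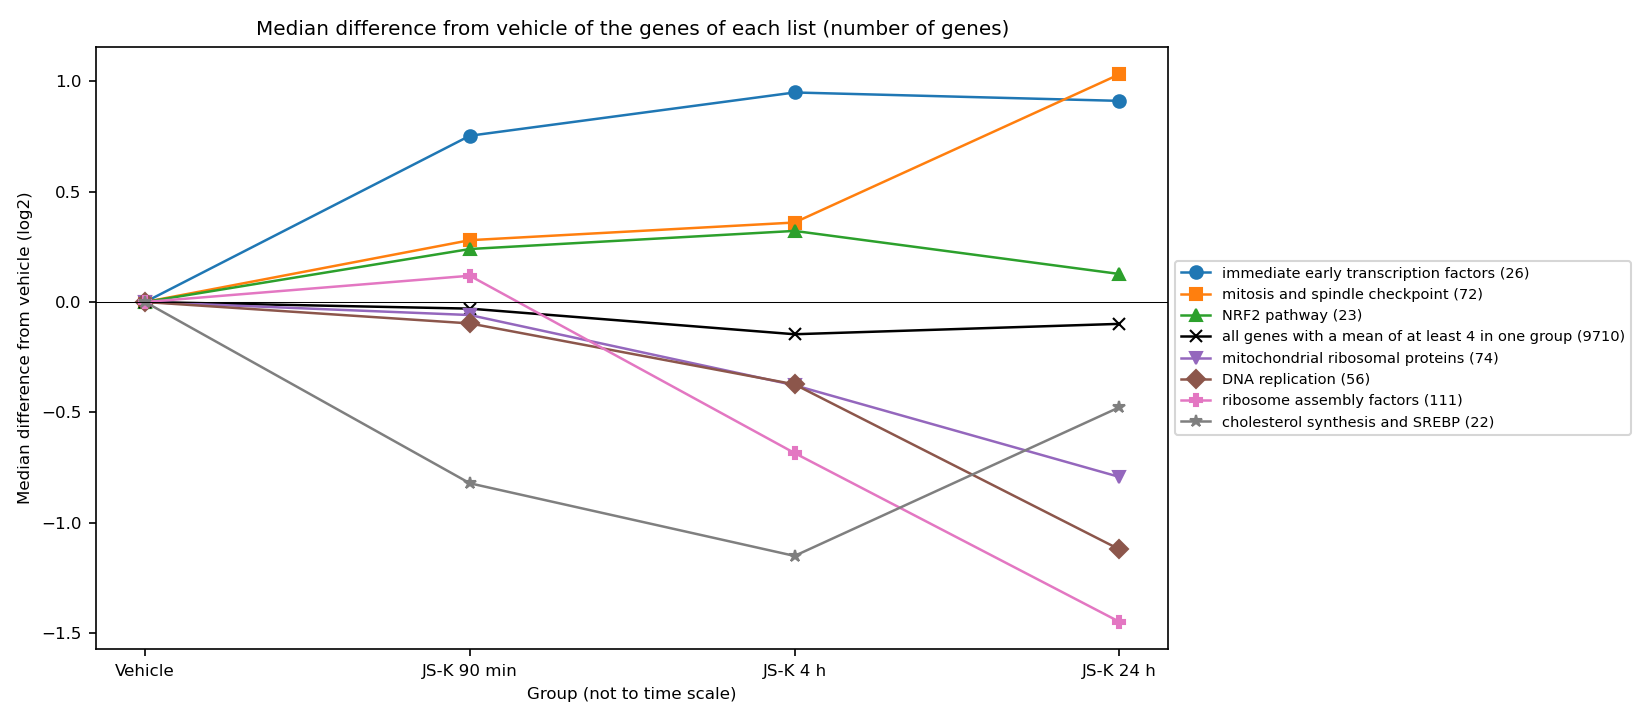
Median log2 difference from vehicle (vertical axis) of the genes of 7 lists and of all 9710 genes, at 90 min, 4 h and 24 h (horizontal axis, not to time scale). All 3 times share the vehicle arrays, and the ribosome assembly median goes from 0.12 to -0.68 and -1.45 while that of cholesterol synthesis goes from -0.82 to -1.15 and -0.48.

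Against 4 h, the 24 h arrays were higher for 25.2% of 9709 genes and lower for 21.5%, and they share the 4 h arrays with both comparisons above. The poly-A spikes averaged 8.47 at 24 h against 7.02 at 4 h, and the spikes added for hybridization 11.7 against 10.2. Their part in the differences between these times was not tested. Some changes of 4 h had gone further. TREM1 read 9.91, 9.94 and 9.79 at 24 h, higher than at 4 h by 2.31 ± 0.21, and MMP1 read 12.21, 12.11 and 12.11, higher by 3.07 ± 0.12. EMP1 was higher by 3.92 ± 0.24. LY96, the partner of TLR4, changed little by 4 h (0.6 ± 0.16, a call lost without vehicle replicate 3) and was higher at 24 h by 4.18 ± 0.16. DCSTAMP, a fusion protein of osteoclasts and macrophages, was higher by 3.15 ± 0.26 and PILRA by 2.81 ± 0.14. PUS7, UNG and CDC6 had fallen slightly by 4 h and were lower still at 24 h, with differences between the times of -3.59 ± 0.17, -2.85 ± 0.12 and -2.96 ± 0.14. Of the 72 mitosis genes 59 were higher at 24 h than at 4 h, and of the 56 replication genes 41 were lower.

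Other changes of 4 h had gone back in part or in whole by 24 h. HMOX1 read 3.65, 4.71 and 4.52 at 24 h and was lower than at 4 h, with a difference of -3.22 ± 0.3 (adjusted p = 5.56e-06). HLA-DRA read 7.51, 7.5 and 7.64 at 90 min, 7.85, 7.03 and 7.72 at 4 h and 4.84, 4.22 and 3.96 at 24 h, where it was lower, with a difference of -3.19 ± 0.24. SLC7A11 and GCLM were lower at 24 h than at 4 h, with differences of -1.08 ± 0.09 and -1.38 ± 0.09. So were CXCL2 and CXCL8, with differences of -1.47 ± 0.19 and -0.74 ± 0.06. MEIS1, lowest at 4 h, read 9.91, 9.83 and 9.7 at 24 h, higher by 1.34 ± 0.08. Of the 22 cholesterol genes 15 were higher at 24 h than at 4 h and none lower. MSMO1 read 10.75, 10.73 and 10.76 at 24 h, higher by 1.73 ± 0.06, while CCL2 read 12.65, 12.69 and 12.57 at 24 h, higher by 2.1 ± 0.07.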

How the data were processed

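RNA of 12 U937 cultures was read on whole-genome expression arrays, 3 arrays a group. The authors deposited log2 levels made with GCRMA in Affymetrix Expression Console, per the submitters' processing notes. Per the labels' protocols, total RNA was labelled from random hexamers. The genome build and software versions are not given in the sources used here.

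Of 54675 probe sets, 41097 had 1 gene symbol, 1801 several and 11777 none. Symbols were updated through gene IDs (41043 matched) with RefSeq GRCh38.p14. For each of 19775 genes the probe set brightest on average was kept, a choice that bore on 10523 genes with several. Values were used as deposited, with no new background correction. Group means were fitted over all 12 arrays with limma 3.58.1 in R 4.3.3 (empirical Bayes with a trend, 8 residual degrees of freedom), with Benjamini-Hochberg adjustment over the 19775 genes. A fold is 2 to the power of the size of a difference. The fit was tested on simulated data with known changes. Figures were drawn with matplotlib 3.10.9.

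The gene lists, the level of 4 and the groups of genes were chosen with earlier results of these data known. Genes were named by rule: the 15 largest rises and falls among called genes at 4 or more in both groups without overlap of the arrays, the 10 largest each way at 4 or more in 1 group, up to 5 called members of each list with the largest change and 2 highly expressed ones that did not pass, the 6 largest differences each way between times, and a fixed set of stress, cytokine and cell cycle genes. Some gene classes without settled symbols and non-coding genes were left out of the ranks by size. The rule chose 466 genes, and the text names 223 of them, a further choice made without a stated rule. Some genes of the fixed set, such as GSTP1, TNF and ICAM1, are not described. The titles call the arrays biological replicates, but nothing says that the cultures were started separately, so p-values measure the spread between these arrays. Same-numbered arrays did not deviate together (correlations of deviations -0.155, 0.0918 and 0.00894 over 9551 genes), so numbers were not used as pairs. Alternatives changed the scaling, the filter, the probe set rule, the spread model, the array weights, the test and the arrays used. The number of arrays limits the precision.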

Additional observations from a re-analysis of the deposited data

Results flagged for a closer look

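Only the 466 genes chosen by the naming rule were screened for a change of side. For 8 of them the effects at 4 h and at another time lay on opposite sides of vehicle, with no overlap of the arrays. The difference between the times was called, the mean was at least 4 at both times, and the other time lay at least 0.5 from vehicle. These limits were narrowed after the data were seen. P2RX7 was lower than vehicle at 90 min and higher at 4 h, and the times differed by 2.14 ± 0.15. The other 7 changed sides between 4 h and 24 h. CCNE2 averaged 9.71 in vehicle, 10.85 at 4 h and 8.55 at 24 h, a difference between the times of -2.3 ± 0.11. EGR1 averaged 9.14, 9.92 and 7.38, a difference of -2.53 ± 0.26, and HLA-DRA 4.95, 7.53 and 4.34, a difference of -3.19 ± 0.24. HSPA5 differed between these times by -1.12 ± 0.05. MS4A3, a gene of immature myeloid cells, averaged 10.47 in vehicle, 10.76 at 4 h and 6.04 at 24 h, a difference of -4.72 ± 0.09, while its call at 4 h (0.29 ± 0.09) was lost without any one vehicle array and without 4 h replicate 1 or 3. RPL39L, a ribosomal protein gene, differed by 1.3 ± 0.12, and its difference at 4 h of -0.44 ± 0.12 was a call lost without vehicle replicate 1 or 3. TXNIP averaged 9.01, 8.0 and 10.6, a difference of 2.6 ± 0.08.

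The poly-A spike probe sets, which are no part of the comparison of genes, averaged 7.02 on the 4 h arrays against 3.04 in vehicle. They averaged 3.08 at 90 min and 8.47 at 24 h, so the comparisons between times also differ in this measure. The part of these differences in the gene results was not tested.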

How the results depend on the processing

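Of the 184 genes named in the text and called at 4 h against vehicle, 175 kept their direction and call in every alternative run other than the test against a fold of 1.5, 0 reversed, and 9 lost the call when 1 array was left out. Genes that did not pass the test were less stable. Of these, 17 were called with array medians over genes at 4 or more subtracted, 9 after quantile normalization and 20 with array weights. Among the 17 were CAT at 0.23 and DDIT3 at 0.29, so a gene that did not pass is not shown to be unchanged. Of genes higher at 4 h than in vehicle, 1416 as reported, 2807 were called with array medians over genes at 4 or more subtracted, 3119 with array weights and 223 against a fold of 1.5. Of genes lower, 3166 as reported, 2102 were called from the 6 arrays alone and 317 against a fold of 1.5. Leaving out 1 array gave 1052 to 1523 higher and 2213 to 3677 lower. Against 90 min, 618 genes were higher as reported, 1077 after quantile normalization, 369 with each array's median over all genes subtracted, 1478 with medians over genes at 4 or more subtracted, 2760 with array weights, 380 from the 6 arrays alone and 59 against a fold of 1.5. Lower against 90 min were 1416 as reported, 2983 with array weights, 830 from the 6 arrays alone, 68 against a fold of 1.5, and 898 to 1810 with 1 array left out, the lowest without 90 min replicate 1 or 3. At 24 h against 4 h, 2444 genes were higher as reported and 468 against a fold of 1.5, and 2083 were lower as reported, 3550 with array weights and 497 against a fold of 1.5. The array weights did not converge and ranged from 0.0413 for 4 h replicate 2 to 29.0433 for 4 h replicate 1. With the replicate number as a block, 4 h against vehicle gave 1530 higher and 3360 lower, 655 and 1479 against 90 min, and 2465 and 2117 at 24 h against 4 h, and no count moved by over 1.5 times. The cause of these differences was not tested.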

Other observations

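Several gene groups not described above moved both ways at 4 h. Among 21 genes of the hypoxia-inducible factors and their targets, 8 rose and 4 fell, or 8 and 1 with array medians subtracted. EPAS1, one of these factors, rose by 0.99 ± 0.08, SLC2A3, a glucose carrier, by 1.09 ± 0.13, NDRG1 by 0.94 ± 0.12 and DDIT4, which restrains mTOR, by 0.78 ± 0.09. Of 16 metallothionein and zinc genes 3 rose and 7 fell, or 6 and 5 with array medians subtracted: SLC30A1, a zinc exporter, rose by 0.83 ± 0.15 and SLC39A10, a zinc importer, fell by 0.82 ± 0.06, while MT2A did not pass the test (0.25 ± 0.11). Of 17 genes of TNF ligands and receptors 4 rose and 2 fell. TNFSF13, the ligand APRIL, rose by 1.14 ± 0.22, and the ligands TNFSF13B, known as BAFF, and CD70 fell, with differences of -0.78 ± 0.08 and -0.9 ± 0.16.

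Of 23 genes of heme breakdown and iron, HMOX1 was the 1 that rose and 7 fell, but 7 rose and 7 fell with array medians subtracted. HMOX2, the constitutive heme oxygenase, read 8.82, 8.84 and 8.8 in vehicle and 8.22, 7.86 and 8.15 at 4 h, a difference of -0.74 ± 0.1. FECH, which inserts iron into heme, fell by 0.9 ± 0.13 and FTL, ferritin light chain, did not pass the test (0.04 ± 0.06). Of 22 glycolysis genes 3 rose and 6 fell, or 9 and 2 with array medians subtracted, and PFKFB3, which raises glycolytic flux, rose by 0.7 ± 0.11. Of 56 nuclear pore and transport genes 23 fell and 3 rose, or 14 and 8 with array medians subtracted, and NXT1, of mRNA export, fell by 1.38 ± 0.09. Of 81 genes of the RNA polymerase II machinery 30 fell and 5 rose, near the 32.6% lower among all genes, or 19 and 13 with array medians subtracted and 18 and 4 without 4 h replicate 2, and ELL2, an elongation factor, rose by 1.68 ± 0.19 from just under 4.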
